A study of Mus musculus with 2 samples.

Results

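Glycolysis splits glucose to pyruvate in the cytosol, the pentose phosphate pathway branches off at glucose 6-phosphate to make NADPH and ribose for nucleotides, and solute carriers bring in the glucose and amino acids that both growth and these pathways use. Naive T cells are resting cells that keep nutrient uptake and glycolysis low, and activated T cells raise them, with the transcription factors MYC and HIF-1 alpha among the drivers. The genes described here are 36 members of these pathways, chosen by symbol: transporters of glucose, lactate and amino acids, glycolytic and pentose phosphate enzymes, enzymes that decide the fate of pyruvate, and those 2 transcription factors. On the array, 33 of them were matched by 75 probe sets that carry 1 gene symbol, of 45101 probe sets in all. Gpi1, Eno1 and G6pdx had no such probe set and were not analysed here.

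The study compared naive gamma/delta T cells, labelled CD44-, with naive CD8+ alpha/beta T cells, called CD8 T cells below, in a series whose title is about the Src family kinase Blk. C57BL/6 mice gave both preparations, from lymph nodes, and other cells were removed by negative selection, with no further treatment, genotype or age in the labels. Each preparation was read on 1 MOE430 2.0 array, a 1-colour Affymetrix array, so there is no replicate, no error of a group and no p-value. How many mice stand behind a preparation is not in the labels. Values are MAS5 signals in scaled linear units. A gene took the probe set with its highest mean log2 signal, and signals under a floor of 243.3, the higher of the arrays' medians, were raised to it before the ratio of gamma/delta to CD8 was formed. With 1 array under the floor the ratio is a bound, and with both under it there is none. A ratio of 2-fold or more is called a difference. The spread available is that between probe sets of the same gene on the same pair of arrays, with a pooled SD of 0.50 on the log2 scale over 3317 genes and 0.48 over 14 of the pathway genes. A 2-fold difference is a log2 ratio about as far from 0 as 2 of these SDs. They hold no variation between mice, preparations or hybridisations, so they are no error of a difference between the groups.

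The arrays carried the markers of their labels. The gamma segments Trgv4 and Trgv1 read 12522 and 9449 on the gamma/delta array, against 170.4 and 13.7, under the floor, on the CD8 array. Cd8a and Cd8b1 read 731 and 382 on the gamma/delta array, against 8852 and 2193 on the CD8 array, so the signals of both chains stayed above the floor in the gamma/delta preparation by these probe sets. Cd4 was under the floor on both. Sox13 and Cd163l1, known from gamma/delta T cells, were at least 4.47- and 36.9-fold higher in gamma/delta. Of the CD3 chains of the T cell receptor complex, Cd3g was 2.31-fold higher in gamma/delta, and Cd3e, Cd3d and Cd247 had log2 ratios of 0.80, -0.03 and -0.04, with other probe sets of Cd247 down to -1.13. Cd44, the marker named in the gamma/delta label, read 525 in gamma/delta and 421 in CD8, and its probe sets had log2 ratios from -0.85 to 0.97. Of 58 markers of B, myeloid, NK, erythroid and stromal cells, 51 were measured, 26 of these were below the floor on both arrays, and Gzma alone passed 2-fold, at least 5.93-fold higher in gamma/delta. Summed over its list, the marker signal in the gamma/delta preparation was 7677 for B cells, 2496 for myeloid cells, 2317 for NK cells, 766 for red cells and platelets and 4563 for stromal genes. In the CD8 preparation the same sums were 6806, 2351, 945, 672 and 3669.8. Of the B cell markers, 9 of 13 measured had a ratio. The 6 above 0 were Ebf1, Ms4a1, Ighm, Blnk, Cr2 and, as a bound, Cd79b. Ebf1 read 3331 in gamma/delta and 2650 in CD8, and Ms4a1 read 858 in gamma/delta and 616 in CD8. H2-Aa, Fcer2a and Ly6d had ratios below 0, and neither array had Cd79a, Cd22, Pax5 or Cd74 above the floor. Of the NK markers, Gzma, Prf1 and Eomes had ratios above 0 and Ncr1 and Klrk1 were under the floor on both. In the myeloid list 10 of 15 measured markers were under it on both, Tyrobp and Lyz2 among them. The part of other cells in the ratios below was not tested, and in such bulk RNA fewer cells of a type and less RNA per cell cannot be told apart. Actin's 3′ to 5′ signal ratio, which reads RNA integrity, was 6.99 in gamma/delta and 3.12 in CD8, while that of Gapdh was 3.06 in gamma/delta and 3.24 in CD8 and that of Tfrc 3.97 in gamma/delta and 4.47 in CD8. The gap was wide for actin, with the higher ratio in gamma/delta, and narrow for Gapdh and Tfrc, with the higher ratio in CD8. The part of RNA integrity in the ratios below was not tested.

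Of the pathway genes with a ratio, 22 of 27 lay within 2-fold in the 2 preparations, where 10753 of all 11914 genes with a ratio did. Of the 32 read by probe sets other than array controls, 27 had a ratio and 5 were below the floor on both arrays. Slc38a2 and Slc16a1, which carry amino acids and lactate, the glucose transporter Slc2a3 and the glycolytic enzyme Pgam1 lay 2-fold or more lower in gamma/delta T cells, and Rpia, an enzyme of the pentose phosphate pathway, lay 2-fold or more higher. This is 1 gene of 27 higher in gamma/delta (3.7%), where 5.82% of all 11914 genes with a ratio were, and 4 of 27 higher in CD8 (14.8%), where 3.93% of all genes were. The median log2 ratio was 0.05 over the 27 genes and 0.03 over all genes, with 15 of the 27 above 0 and 12 below. By single probe sets, 3 of 56 passed 2-fold towards gamma/delta and 5 of 56 towards CD8, where 5.2% and 4.37% of all 20297 probe sets were. The 4 genes lower in gamma/delta are few, and no test was possible on them. The pathway genes were also chosen with earlier results of these data known. With no floor set, 4 of 32 were higher in CD8 (12.5%), below the 14.1% of all genes, so the larger share of the pathway genes was not seen in that setting. Its gene set is unlike that above, as all 18193 genes then take part, 6279 of them under the floor on both arrays.

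**Figure D1:**
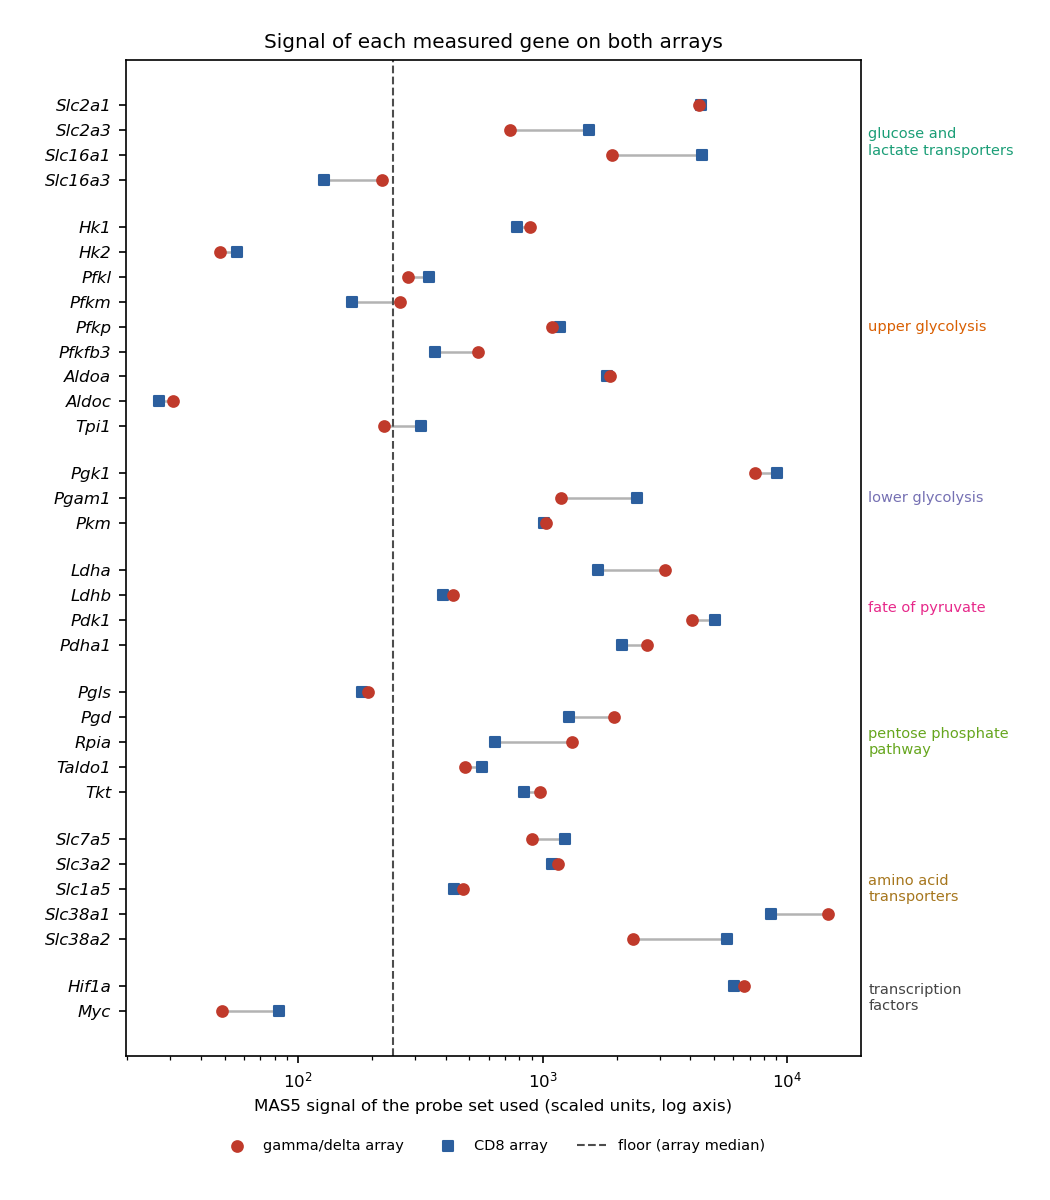
MAS5 signal (scaled units, log axis) of the probe set used for each of the 32 measured genes, with the gamma/delta array as circles, the CD8 array as squares and the floor of 243.3 as a dashed line. Long bars mark Slc2a3, Slc16a1, Pgam1 and Slc38a2, lower in gamma/delta, and Rpia, higher there, while Slc16a3, Hk2, Aldoc, Pgls and Myc lie left of the floor on both arrays.

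The promoter windows of genes at the largest ratios are shown because both MYC and HIF-1 alpha are known to act on glycolytic genes through short sites with the core ACGTG. Each window runs from 250 bases before to 50 bases after the RefSeq gene start on GRCm38.p6, and the capitals mark ACGTG on either strand. The MYC-type site CACGTG, the same on both strands, holds this core on each strand. No window was listed for Slc2a3.
Slc16a1 (GRCm38.p6, chr3:104638414-104638713, plus strand): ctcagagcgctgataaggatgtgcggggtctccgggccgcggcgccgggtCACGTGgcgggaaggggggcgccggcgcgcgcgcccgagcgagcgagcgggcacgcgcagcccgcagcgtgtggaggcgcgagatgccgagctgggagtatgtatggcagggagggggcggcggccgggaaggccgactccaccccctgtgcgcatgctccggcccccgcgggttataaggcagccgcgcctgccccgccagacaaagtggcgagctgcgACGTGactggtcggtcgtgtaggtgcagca
Pgam1 (GRCm38.p6, chr19:41911621-41911920, plus strand): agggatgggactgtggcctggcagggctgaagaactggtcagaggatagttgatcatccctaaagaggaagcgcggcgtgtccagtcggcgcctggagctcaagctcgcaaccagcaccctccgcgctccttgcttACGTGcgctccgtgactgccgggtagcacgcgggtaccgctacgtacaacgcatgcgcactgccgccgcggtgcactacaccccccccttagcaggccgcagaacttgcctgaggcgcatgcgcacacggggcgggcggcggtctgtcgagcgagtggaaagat
Ldha (GRCm38.p6, chr7:46845554-46845853, plus strand): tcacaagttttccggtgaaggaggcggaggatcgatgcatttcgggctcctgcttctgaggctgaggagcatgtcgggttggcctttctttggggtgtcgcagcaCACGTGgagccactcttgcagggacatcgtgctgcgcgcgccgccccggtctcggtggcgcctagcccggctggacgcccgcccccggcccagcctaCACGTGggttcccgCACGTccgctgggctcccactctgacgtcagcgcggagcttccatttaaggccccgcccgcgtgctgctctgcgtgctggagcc
Rpia (GRCm38.p6, chr6:70792126-70792425, minus strand): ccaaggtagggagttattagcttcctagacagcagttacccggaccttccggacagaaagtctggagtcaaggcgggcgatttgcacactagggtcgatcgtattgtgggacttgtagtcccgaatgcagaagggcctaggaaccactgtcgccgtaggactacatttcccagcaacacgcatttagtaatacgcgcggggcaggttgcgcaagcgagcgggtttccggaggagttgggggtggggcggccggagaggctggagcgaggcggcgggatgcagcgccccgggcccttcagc
Slc38a2 (GRCm38.p6, chr15:96699679-96699978, minus strand): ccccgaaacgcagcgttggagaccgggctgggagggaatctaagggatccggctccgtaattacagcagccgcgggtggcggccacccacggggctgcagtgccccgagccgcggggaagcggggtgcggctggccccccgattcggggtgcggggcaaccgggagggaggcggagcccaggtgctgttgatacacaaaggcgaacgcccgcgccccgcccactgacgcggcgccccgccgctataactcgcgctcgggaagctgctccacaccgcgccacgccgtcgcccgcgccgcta
The Ldha window is the richer of its 2 windows and was added for its ratio just under 2-fold. It holds CACGTG at 2 places, and that of Slc16a1 holds it at 1. Pgam1 has 1 ACGTG outside such a site, and the windows of Rpia and Slc38a2 have none. In all, windows of 31 pathway genes were found. ACGTG was in 20 of their 45 windows (44.4%) and in 19.6% of 32851 mouse windows of the same length, and CACGTG in 5 of 45 (11.1%) against 7.15%. TGACNNNGC, a short form of the antioxidant response element known from pentose phosphate genes, was in 6 of 45 (13.3%) against 12.4%, on either strand, and among the windows printed in those of Slc16a1 and Slc38a2. The windows were not matched for base composition. The 5 genes with CACGTG were Hif1a, Ldha, Pfkfb3, Pfkm and Slc16a1, whose log2 ratios ran from -1.22 for Slc16a1 to 0.91 for Ldha.

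All 3 transporters of glucose and lactate with a ratio had a ratio below 0, where 5666 of all 11914 genes did. Of these 3, 2 lay 2-fold or more lower in gamma/delta T cells, where 3.93% of all genes did. The third, Slc2a1, was close to 0, and above it with quantile (0.04) and loess scaling (0.07). Slc16a1, which encodes the proton-linked monocarboxylate transporter MCT1, read 1923 in gamma/delta T cells and 4483 in CD8 T cells, a 2.33-fold lower signal in gamma/delta (log2 ratio -1.22). Its second probe set read 209 in gamma/delta, under the floor, and 377 in CD8, at least 1.55-fold lower. Both probe sets thus had the same direction, and with the median of their ratios taken Slc16a1 came to -0.93, short of 2-fold. Slc16a3, which encodes the lactate exporter MCT4 of highly glycolytic cells, was below the floor on both arrays at 219.8 in gamma/delta and 127 in CD8.

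Slc2a1 encodes GLUT1, the glucose transporter that T cells raise on activation, and it read 4328 in gamma/delta T cells and 4415 in CD8 T cells (log2 ratio -0.03). Its other probe sets had log2 ratios of -0.26 and -0.36, so all 3 were slightly lower in gamma/delta and none reached 2-fold. Slc2a3, which encodes the high-affinity transporter GLUT3, read 734 in gamma/delta T cells and 1539 in CD8 T cells, 2.10-fold lower in gamma/delta (log2 ratio -1.07). A second probe set of Slc2a3 read 751 in gamma/delta and 849 in CD8, a log2 ratio of -0.18, and its other 2 were under the floor on both arrays. The 2-fold difference of Slc2a3 rests on 1 probe set, of the kind (_x_at) that can bind related transcripts. With the log2 signals of its 4 probe sets averaged, Slc2a3 had a bound of -0.09 on the log2 scale, and with the median of its ratios it had -0.62.

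Of the enzymes of upper glycolysis, from glucose to the triose phosphates, 7 genes had a ratio and 0 of these passed 2-fold. Of all genes, 5.82% passed it towards gamma/delta and 3.93% towards CD8. The ratios of Pfkm and Tpi1 are bounds, so a larger difference is not excluded for them. The log2 ratios of the 7 ran from -0.38 to 0.58 with a median of 0.05. Hk1, a widely expressed hexokinase, read 885 in gamma/delta T cells and 787 in CD8 T cells. Hk2, the inducible hexokinase, was below the floor on both arrays at 47.7 in gamma/delta and 56.4 in CD8, as was Aldoc, the brain-type aldolase.

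Phosphofructokinase makes the committed step, and none of its isozymes passed 2-fold, with a bound alone for Pfkm. Pfkp read 1089.6 in gamma/delta T cells and 1173 in CD8 T cells (log2 ratio -0.11), and its second probe set had -0.24. Pfkl, the liver type, read 282 in gamma/delta and 341 in CD8, and Pfkm, the muscle type, read 259.9 in gamma/delta and 166, under the floor, in CD8, at least 1.07-fold higher in gamma/delta. Pfkfb3 makes the allosteric activator of phosphofructokinase, and its probe sets disagreed. They read 542 and 262 in gamma/delta T cells, against 362 and 350.1 in CD8 T cells, giving log2 ratios of 0.58 and -0.42.

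Aldoa, the main aldolase, was read by 5 probe sets with signals from 1096 to 1883 in gamma/delta and from 938 to 1824 in CD8 T cells. All 5 were slightly higher in gamma/delta, with log2 ratios from 0.05 to 0.41. Tpi1, which interconverts the triose phosphates, read 224, under the floor, in gamma/delta T cells and 317 in CD8 T cells by the probe set used. Another of its probe sets read 367 in gamma/delta T cells and 19.3 in CD8 T cells, at least 1.51-fold higher in gamma/delta, so no direction can be given.

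In lower glycolysis, from the triose phosphates to pyruvate, Pgam1 passed 2-fold and its measured neighbours did not. Pgam1, the phosphoglycerate mutase, read 1188 in gamma/delta T cells and 2421 in CD8 T cells on its 1 probe set, 2.04-fold lower in gamma/delta (log2 ratio -1.03). Pgk1, the kinase just before it, read 7339 in gamma/delta T cells and 9029 in CD8 T cells (log2 ratio -0.30), and its other probe sets had -0.43 and 0.53. Pkm, the pyruvate kinase of lymphocytes, read 1031 in gamma/delta and 1012 in CD8, a log2 ratio of 0.03. The difference of Pgam1 lies close to the threshold.

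Gapdh was matched by the array's 3 control probe sets alone, which were kept out of the counts above. At its 3′ end it read 17704 in gamma/delta T cells and 16162 in CD8 T cells, in the middle 5147 in gamma/delta and 5300.3 in CD8, and at its 5′ end 5794 in gamma/delta and 4995 in CD8. The log2 ratios were 0.13, -0.04 and 0.21, so that the 2 arrays lay within 1.16-fold of each other for this gene. Its 3′ to 5′ ratio was 3.06 in gamma/delta T cells and 3.24 in CD8 T cells.

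At the fate of pyruvate, Ldha came nearest to a difference. Ldha, the lactate dehydrogenase subunit of glycolytic cells, read 3159 in gamma/delta T cells and 1686 in CD8 T cells on its 1 probe set, 1.87-fold higher in gamma/delta (log2 ratio 0.91). Ldhb, the other subunit, read 429 in gamma/delta and 392 in CD8 by the probe set used, and its 4 probe sets had log2 ratios from 0.13 to 0.26, all higher in gamma/delta and none 2-fold. Ldha and Slc16a1, whose products make lactate and move it across the membrane, therefore had signals on opposite sides.

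Pyruvate enters the mitochondrial pathway through pyruvate dehydrogenase, which Pdk1 switches off. Pdk1 read 4077 in gamma/delta T cells and 5033 in CD8 T cells (log2 ratio -0.30). Its 4 probe sets ran from -0.44 to 0.56, 3 below 0 and 1 above. Pdha1, the alpha subunit of the enzyme's first component, read 2667 in gamma/delta T cells and 2116 in CD8 T cells, and its 2 probe sets had log2 ratios of 0.33 and 0.42.

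In the pentose phosphate pathway 3 of 4 genes with a ratio lay above 0, where 6248 of all 11914 genes did. These 4 genes are too few to give the pathway a direction. Their median log2 ratio was 0.41, which was 0.22 with a 30th percentile floor or with no floor, where Pgls gains a ratio. Rpia, which converts ribulose 5-phosphate to ribose 5-phosphate for nucleotide synthesis, read 1312 in gamma/delta T cells and 639 in CD8 T cells on its 1 probe set, 2.05-fold higher in gamma/delta (log2 ratio 1.04). With quantile normalization its log2 ratio was 0.9985, just under the 2-fold threshold. Pgd makes NADPH in the oxidative branch, and its 4 probe sets read 1947, 1783, 726 and 378 in gamma/delta T cells, against 1279.5, 826, 273 and 248 in CD8 T cells. All 4 were higher in gamma/delta, 1.52-, 2.16-, 2.66- and 1.53-fold. The gene value of Pgd, from the brightest probe set, stayed under 2-fold at a log2 ratio of 0.61 while 2 of its probe sets passed it.

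In the non-oxidative branch, Tkt, the transketolase, read 973 in gamma/delta T cells and 838 in CD8 T cells by the probe set used, and 541 in gamma/delta and 279 in CD8 by another, log2 ratios of 0.22 and 0.96. Its remaining probe set was under the floor. Taldo1, the transaldolase, went the other way, at 480.0 in gamma/delta T cells and 563 in CD8 T cells (log2 ratio -0.23). Pgls, the lactonase between the oxidative steps, was below the floor on both arrays at 194 in gamma/delta and 182 in CD8. G6pdx, the first enzyme of the pathway, was not analysed here.

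**Figure D2:**
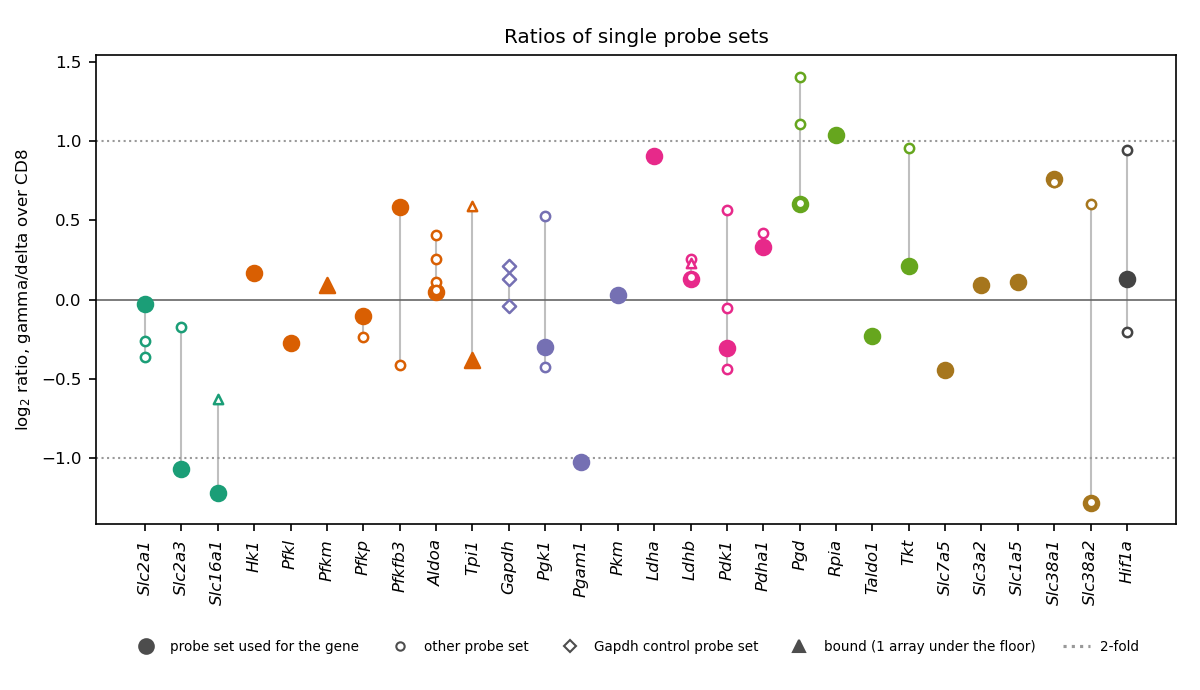
log2 ratio of gamma/delta over CD8 for each probe set with a ratio, by gene and coloured by role group, where large filled symbols are the probe sets used for a gene, small open circles its others, diamonds the Gapdh controls, triangles bounds, and dotted lines 2-fold. The 4 probe sets of Pgd all lie above 0.6, while those of Slc38a2 lie at -1.29, -1.28 and 0.61.

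Amino acid transporters went both ways. Slc38a1 and Slc38a2 encode the related sodium-coupled neutral amino acid transporters SNAT1 and SNAT2, which carry glutamine and alanine. Slc38a2 read 2328 in gamma/delta T cells and 5680.4 in CD8 T cells, 2.44-fold lower in gamma/delta (log2 ratio -1.29). A second probe set of Slc38a2 read 373 in gamma/delta and 903 in CD8, 2.42-fold lower, and the last read 737 in gamma/delta and 484 in CD8, a log2 ratio of 0.61 in the opposite direction. With its log2 signals averaged, Slc38a2 had a log2 ratio of -0.65, short of 2-fold. Slc38a1 read 14586 in gamma/delta T cells and 8591 in CD8 T cells, and 1084 in gamma/delta and 647 in CD8 by its second probe set, 1.70- and 1.67-fold higher in gamma/delta. The probe sets of Slc38a1 thus differed by 0.02 on the log2 scale and those of Slc38a2 by 1.89.

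Slc7a5 and Slc3a2 encode the light and heavy chain of a leucine transporter, with CD98 the heavy chain. Slc7a5 read 904 in gamma/delta T cells and 1231 in CD8 T cells (log2 ratio -0.45), and Slc3a2 read 1157 in gamma/delta and 1087 in CD8 (0.09). Slc1a5, the glutamine transporter ASCT2, read 470.1 in gamma/delta T cells and 435 in CD8 T cells by 1 probe set (log2 ratio 0.11) and lay under the floor by its other. None of the 3 approached 2-fold.

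Of the transcription factors, Hif1a read 6616 in gamma/delta T cells and 6046 in CD8 T cells by the probe set used, a log2 ratio of 0.13. Its other probe sets read 2848 in gamma/delta and 1479.7 in CD8, 1.92-fold higher in gamma/delta, and 688 in gamma/delta and 793 in CD8, slightly lower there. No direction can be given for Hif1a. Myc, which drives growth metabolism in activated T cells, was below the floor on both arrays at 48.6 in gamma/delta T cells and 83.2 in CD8 T cells, by its 1 probe set.

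Over the genes as a whole, 16 had ratios from 2 or more probe sets, and for 6 (37.5%) these ratios had both signs, where 52.8% of 4890 such genes on the array did. The 6 were Hif1a, Pdk1, Pfkfb3, Pgk1, Slc38a2 and Tpi1. The 5 called genes rest on unequal ground by this measure. Pgam1 and Rpia each had 1 probe set, Slc16a1 had a second with a bound of the same direction, Slc38a2 had 2 that agreed in size and 1 opposed, and Slc2a3 had a second close to 0.

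**Figure D3:**
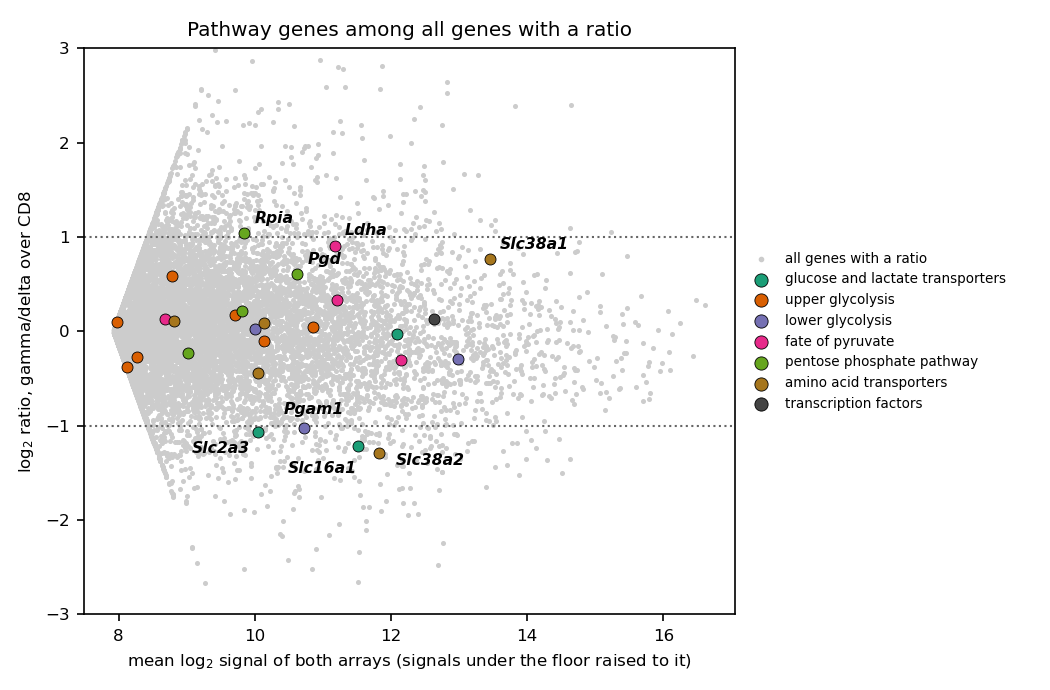
log2 ratio of gamma/delta over CD8 against mean log2 signal for all 11914 genes with a ratio (grey) and the 27 pathway genes (coloured by role group), with dotted lines at 2-fold and 29 genes beyond a log2 ratio of 3 not shown. The pathway genes lie within the grey cloud, from -1.29 for Slc38a2 to 1.04 for Rpia.

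Further genes of these pathways were taken from 7 lists drawn up by role, with earlier results of these data known. Their shares below are a description and not a test. The lists hold 166 genes, of which 120 had a ratio. Of these 13 passed 2-fold towards gamma/delta (10.8%, against 5.82% of all genes) and 5 towards CD8 (4.17%, against 3.93%), and their median log2 ratio was 0.09. Of the 13 described below by a rule on the size of their ratios, 3 (Ddit4, Nme1 and Mlxip) passed 2-fold in every alternative setting with a value, while 10 lost it in 1 to 4 settings. Ddit4 and Mlxip have 1 probe set each, so settings that change how probe sets are combined could not move them. Among other isozymes and regulators of glycolysis 6 of 14 passed 2-fold towards gamma/delta (42.9%, against 5.82% of all genes) and 0 towards CD8 (against 3.93%), with a median log2 ratio of 0.25. Bpgm, which makes the glycolytic by-product 2,3-bisphosphoglycerate, read 1931 in gamma/delta T cells and 424 in CD8 T cells (4.56-fold), and its 3 probe sets had log2 ratios from 0.11 to 2.19. Adpgk, an ADP-dependent glucokinase, read 1510.2 in gamma/delta and 589 in CD8 (2.57-fold), and its second probe set had a log2 ratio of -0.42, so its direction depends on the probe set. Minpp1, a phosphatase of inositol polyphosphates that also acts on 2,3-bisphosphoglycerate, read 2133 in gamma/delta and 849 in CD8 (2.51-fold). Galm, which interconverts the anomers of hexoses, read 787 in gamma/delta T cells and 333 in CD8 T cells (2.36-fold), and its 3 probe sets had log2 ratios from 0.20 to 2.36. Both probe sets of Minpp1 with a ratio were higher in gamma/delta, at log2 ratios of 0.67 and 1.33. When the log2 signals of all its probe sets were averaged, which takes in another one under the floor on both arrays, Minpp1 had -0.26. With plain _at probe sets alone, Bpgm, Adpgk, Minpp1 and Galm had log2 ratios of 0.11, -0.42, 0.67 and 0.20, all short of 2-fold. The 2-fold calls of these genes thus depend on the probe sets taken. Also past 2-fold were Pgam5, at the threshold with 2.001-fold, and Eno2. Eno2 read 550 in gamma/delta T cells and 228, under the floor, in CD8 T cells, at least 2.26-fold higher in gamma/delta.

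Among other pyruvate genes 0 of 14 passed 2-fold in either direction, with a median log2 ratio of 0.26. Of all genes, 5.82% passed it towards gamma/delta and 3.93% towards CD8, so 0 among 14 genes is no result about this list. The subunits of pyruvate dehydrogenase, picked after their values were seen, went both ways. Pdhb read 1647 in gamma/delta T cells and 928 in CD8 T cells (log2 ratio 0.83), and Dlat 588 in gamma/delta and 353 in CD8 (0.74). Dld, shared with other dehydrogenases, read 283 in gamma/delta T cells and 418 in CD8 T cells (-0.56). Of the other kinases of the complex, Pdk3 had a log2 ratio of 0.62 and Pdk4 of 0.45, and Pdk2 was below the floor on both arrays.

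Among other pentose phosphate genes 0 of 6 passed 2-fold, where 5.82% of all genes did towards gamma/delta and 3.93% towards CD8. Above 0 lay 5 of the 6, where 6248 of all 11914 genes did, and the median log2 ratio was 0.68. Rbks, the ribokinase, came closest at 508 in gamma/delta T cells and 256 in CD8 T cells (log2 ratio 0.99), and was picked after its value was seen, as were the next 3. H6pd, the endoplasmic reticulum counterpart of G6pdx, had 0.65. Of the enzymes that activate ribose for nucleotides, Prps2 had 0.72 and Prps1, with signals of 2213 in gamma/delta and 2526 in CD8, had -0.19.

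Of other nutrient transporters, 1 of 23 passed 2-fold towards gamma/delta (4.35%, against 5.82% of all genes) and 0 towards CD8 (against 3.93%), with a median log2 ratio of -0.09. The 1 was Tfrc, the transferrin receptor for iron uptake, at 7478 in gamma/delta T cells and 2883 in CD8 T cells (2.59-fold), and its 3 probe sets had log2 ratios from -0.23 to 1.37. Of the chaperones that bring the Slc16a1 product to the membrane, picked after their values were seen, Bsg was under the floor on both arrays and Emb read 2956 in gamma/delta T cells and 3154 in CD8 T cells.

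In the HIF pathway 4 of 20 genes passed 2-fold towards gamma/delta (20%, against 5.82% of all genes) and 3 towards CD8 (15%, against 3.93%), with a median log2 ratio of 0.24. Ddit4, an inhibitor of mTORC1 signalling, read 5644 in gamma/delta T cells and 2114 in CD8 T cells (2.67-fold) on its 1 probe set. Epas1, which encodes HIF-2 alpha, read 672 in gamma/delta and 208, under the floor, in CD8 T cells (at least 2.76-fold), and Egln3, a prolyl hydroxylase that marks HIF for degradation, read 687 in gamma/delta and 289 in CD8 (2.38-fold). The second probe sets of Epas1 and Egln3 had log2 ratios of 0.08 and 0.60, short of 2-fold. Ndrg1 read 116, under the floor, in gamma/delta T cells and 810.4 in CD8 T cells, at least 3.33-fold lower in gamma/delta, but its 3 probe sets with a ratio reached 0.33 on the other side of 0. The other genes past 2-fold were Fam162a, higher in gamma/delta, and Kdm3a and Mxi1, lower there.

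Of MYC partners and growth targets 2 of 24 passed 2-fold towards gamma/delta (8.33%, against 5.82% of all genes) and 2 towards CD8 (8.33%, against 3.93%), with a median log2 ratio of 0.15. Nme1, a nucleoside diphosphate kinase, read 1166 in gamma/delta T cells and 367 in CD8 T cells (3.18-fold), with both probe sets past 2-fold. Nolc1, a nucleolar protein, read 1762 in gamma/delta and 809.6 in CD8 (2.18-fold), with 3 probe sets from 0.06 to 1.12 in log2 ratio and 0.30 for the median of their ratios. Npm1, nucleophosmin, read 11476 in gamma/delta T cells and 25529 in CD8 T cells (2.22-fold lower), and its second probe set had a log2 ratio of -0.81. Mlxip, a glucose-sensing partner of Mlx, read 747 in gamma/delta and 1526 in CD8 (2.04-fold lower). In the ATF4 and mTORC1 amino acid response 0 of 19 genes passed 2-fold, against 5.82% of all genes towards gamma/delta and 3.93% towards CD8. Their log2 ratios ran from -0.81 to 0.72 with a median of -0.01.

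**Figure D4:**
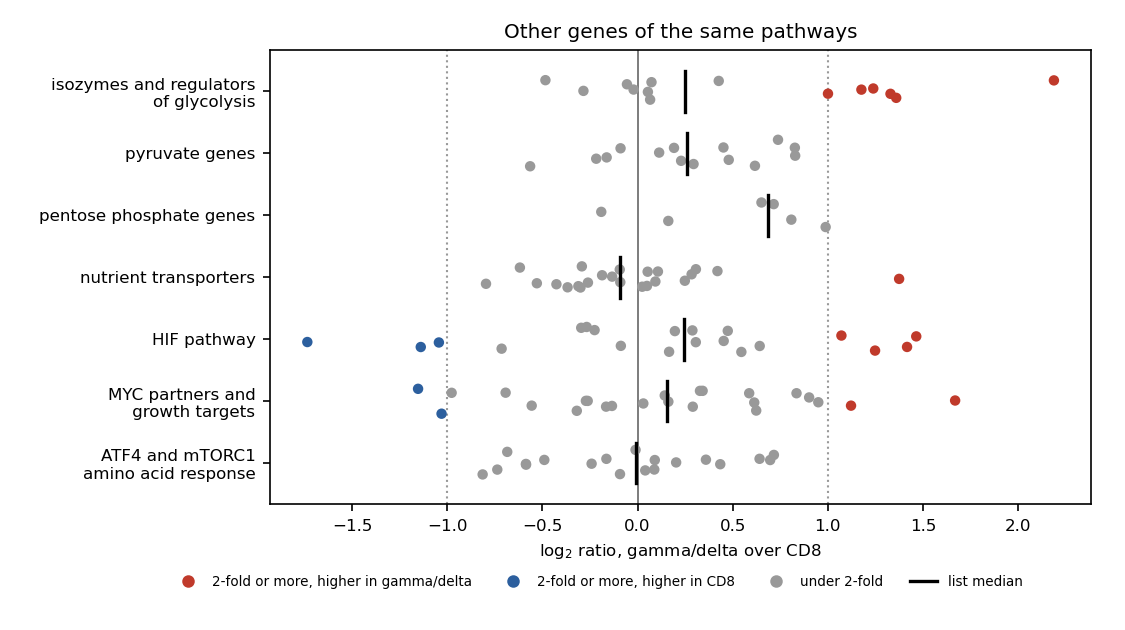
log2 ratio of gamma/delta over CD8 for the 120 further genes with a ratio in 7 lists, with points past 2-fold coloured by direction, the list median as a black bar and dotted lines at 2-fold. The 6 coloured points of the glycolysis isozyme list, with Pgam5 at the threshold among them, all lie on the gamma/delta side. Those of the HIF list lie on both.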

How the data were processed

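RNA of 2 preparations was hybridised to 1 array each. Affymetrix Expression Console 1.0 and its MAS5 method are named in the submitters' processing notes as the source of the deposited intensity values, and biotin labelling followed the 1-cycle protocol, per the labels. After leaving out 2% of the probe sets at either end, both arrays had a mean of 500.003, so the deposited intensities had been scaled to a common target. A genome build for the probes is not given in the sources used here. A platform annotation gave 1 symbol to 34958 of 45101 probe sets and several to 932, and 9211 were not listed in it. Gene values came from probe sets with 1 symbol, without the 64 controls, of which those of Gapdh are described apart. Of those with 1 symbol, 34754 were found by gene identifier in a RefSeq table of GRCm38.p6, and 0 had a different symbol. List names were matched to these symbols or their RefSeq synonyms. Promoter windows are RefSeq's on that assembly.

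Values were used as deposited. The floor, the probe set of a gene and the 2-fold call are defined in the text, and no p-value was computed because each group has 1 array. The number of arrays limits the precision, and array depth is not counted in reads. Named in full are genes past 2-fold, genes with a second probe set past it and the 2 brightest of each role group, and of each further list up to 4 genes past 2-fold. Pathway genes outside this rule are given so that each is accounted for. The genes and lists were chosen with earlier results of these data known. Ratios were checked on simulated data in Python 3.11.15 with pandas 2.3.3 and numpy 2.4.6. The alternatives were median, quantile and loess scaling (statsmodels 0.14.6), floors at the 30th and 70th percentile, no floor with a pseudocount of 1, averaged log2 signals, the median of probe set ratios, probe sets without the endings _x_at, _s_at or _a_at, and the Gapdh controls taking part.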

Additional observations from a re-analysis of the deposited data

Results flagged for a closer look

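Probe sets with several gene symbols stand outside the comparisons, and 2 that list a gene of these pathways carried signals above the floor on both arrays. That of Gapdh, which also lists Gapdh pseudogenes, read 15864 in gamma/delta T cells and 15294 in CD8 T cells, a log2 ratio of 0.05. That of Hk1, which also lists the ribosomal protein gene Rpl17, read 52769 in gamma/delta T cells and 64297 in CD8 T cells, a log2 ratio of -0.29, and its signal cannot be assigned to Hk1.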

How the results depend on the processing

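With 1 array per group no replicate could be left out, and no paired analysis was possible because each group holds 1 sample. A shift is counted where it is larger than the pooled SD of 0.50 between probe sets. The count of genes at least 2-fold higher in gamma/delta was 1, and 0 after quantile normalization. The count at least 2-fold higher in CD8 was 4, and 2 in each of 3 settings. With averaged log2 signals this was 8.70% of 23 pathway genes, against 3.37% of all genes. With the median of probe set ratios it was 7.41% of 27, against 2.74%. With plain _at probe sets alone, a setting that leaves Slc2a3 and Pgam1 without a ratio, it was 12.5% of 16, against 4.09%. Without a floor the count higher in CD8 was again 4, or 12.5% of 32 pathway genes, below the 14.1% of all genes. At a 30th percentile floor it was 13.8%, against 6.54% of all genes. The median of the glucose and lactate transporters (-1.07) came to -0.55 under a 30th percentile floor, -0.55 without a floor and -0.22 with averaged log2 signals. The median of the pentose phosphate genes (0.41) was 0.22 under a 30th percentile floor or without a floor and 0.998 with plain _at probe sets, with which that of Hif1a, the sole transcription factor with a ratio, was 0.94. The median over all pathway genes, 0.05, ran from 0.04 to 0.09 under the 10 alternatives. Values of single pathway genes shifted by more than 0.50 in 8 of 251 cases, and the 5 called genes kept their sign wherever they had a value. Many of these cases could not shift. The Gapdh controls change no other gene, and a moved floor leaves bright genes as they were. Averaging leaves genes with 1 probe set, such as Pgam1 and Rpia, unchanged. Of the further genes, 3 turned round, Adpgk to -0.42 and Ndrg1 to 0.33 with plain _at probe sets and Minpp1 to -0.26 with averaged log2 signals, which add its probe set under the floor. The cause was not tested, beyond the change of probe sets.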
